A study of Homo sapiens with 22 samples.

Results

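Of 93599 regions with a wild-type or D538G estrogen receptor peak in Ishikawa cells, 2620 met a rule for D538G sites seen only without estradiol. They were chosen by their peaks in the D538G lists themselves: a region needed a peak in at least 2 of the 6 D538G DMSO lists and no peak in any of the 6 D538G estradiol lists. Regions were made by merging peaks of all 20 lists on chromosomes 1 to 22 and X that overlapped by at least 1 bp. The DMSO-only regions made up 2.80% of all regions, and presence in the D538G lists, number of D538G DMSO lists and rank in them are given below as descriptions of what was selected, with no test.

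The estrogen receptor alpha, ESR1, is a nuclear receptor that binds DNA as a dimer at estrogen response elements and through partner transcription factors, and recruits coactivators once a hormone such as 17β-estradiol (E2) sits in its ligand-binding domain. The D538G substitution replaces an aspartate by a glycine next to helix 12 of that domain, the helix that closes over the hormone, and is known as a mutation that lets the receptor act without hormone. D538G arises in breast cancers treated with endocrine therapy and occurs in endometrial cancer, the tumour type from which the Ishikawa line was derived.

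The study measured binding of FLAG-tagged ESR1 by chromatin immunoprecipitation and sequencing (ChIP-seq), with an antibody against the tag, so the values report only the tagged receptor. Clonal lines of Ishikawa cells carried tagged receptor that was wild type (2 clones) or D538G (3 clones), and every line was kept in hormone-deprived medium for at least 5 days. Each line was then treated for 1 h with 10 nM E2 or with the solvent DMSO (0.1%), in 2 replicates per clone and treatment. This gave 4 wild-type DMSO, 4 wild-type E2, 6 D538G DMSO and 6 D538G E2 libraries, each with 1 deposited peak list. Lists of 1 clone share a cell line and are not independent, and the labels do not say whether replicates came from separate cultures.

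The lists were very unequal in length, from 45 to 54903 peaks, and the read depth behind them is unknown, so absence of a peak can reflect a short list. Some lists stood apart from their labels. The list labelled D538G clone 2 replicate 1 E2 had peak names that hold the word Ctl, which otherwise appeared only in names of DMSO replicate 1 lists. Of its 19791 regions 87.1% also lay in at least 2 D538G DMSO lists. The other E2 list of this clone matched this share (87.9%) but had only 1876 regions. The remaining E2 lists did not reach it (49.8% to 67.55%). Nearest in length was the clone 3 replicate 1 E2 list, with 52.3% of 18951 regions. The list labelled D538G clone 3 replicate 2 E2, the longest of the E2 lists with 49223 peaks, had a peak in 91.5% of the regions of the clone 1 replicate 1 DMSO list and 88.7% of those of the clone 3 replicate 1 DMSO list. It had a peak in 54.3% to 76.3% of the regions of the other 4 D538G DMSO lists, lowest in the long clone 1 and clone 2 replicate 2 lists. Among the other 5 D538G E2 lists, it held 83.1% of the regions of clone 2 replicate 1, whose names stood apart. It held 72.3% of those of clone 2 replicate 2 and 47.8% to 56.5% in the remaining E2 lists, with 53.9% for its own clone. In clone 1 replicate 1, whose lists were of like length (11904 DMSO and 12082 E2 regions), the overlap was 91.5% against 47.8%. The other clone and replicate pairs differed in the order of these overlaps, and their lists were unequal in length. Peak names with the word Input occurred only in the replicate 1 lists of D538G clones 1 and 2, so the use of an input as control may differ between lists.

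Those E2 lists set which regions counted as DMSO-only. Of all regions with a peak in at least 2 D538G DMSO lists, 82.4% had a peak in the list labelled clone 3 replicate 2 E2 and 65.0% in the list labelled clone 2 replicate 1 E2, against 6.21% to 37.4% in the other 4 E2 lists. Without the first of them the same rule gave 7909 regions, without the second 3376, and without both 16594. The 2620 regions were therefore those that even the E2 lists with the widest overlap with DMSO lists did not hold. Membership itself rests on these lists, so the main values below are given with and without both of them, called the doubted E2 lists.

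Nearly all DMSO-only regions came from a single pair of libraries. The replicate 2 DMSO lists of D538G clones 1 and 2, the longest lists of the series with 50382 and 54903 peaks, held 2573 (98.2%) and 2509 (95.8%) of the 2620 regions. The clone 1 replicate 1 list held 214 (8.17%), the clone 3 replicate 1 list 51 (1.95%), the clone 2 replicate 1 list 2, and the clone 3 replicate 2 list none. These 4 shorter lists had 12963, 9850, 4032 and 1621 peaks in the same order.

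The libraries' lengths and the number of DMSO-only regions in each are set side by side in the plot of regions by list.

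**Figure D1:**
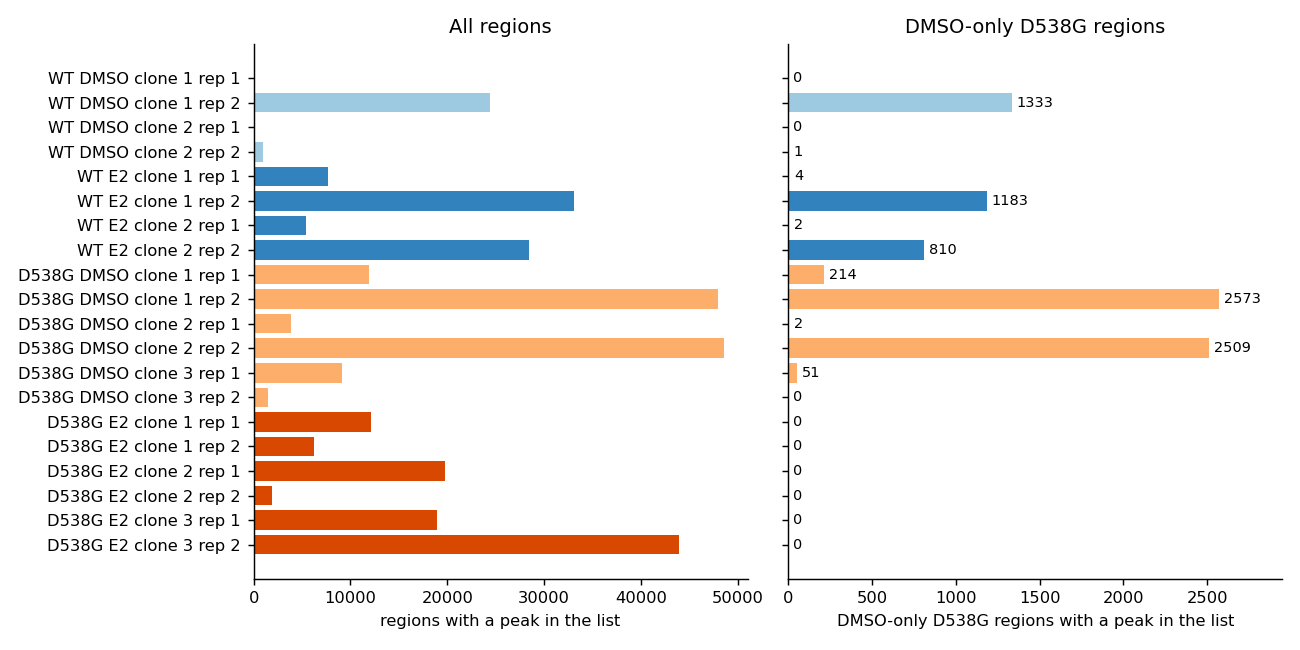
Horizontal bars give, for each of the 20 lists, the number of all regions with a peak (left, axis in regions) and the number of DMSO-only D538G regions with a peak (right, axis in regions). The DMSO replicate 2 lists of D538G clones 1 and 2 hold 2573 and 2509 of the DMSO-only regions, the D538G E2 lists hold 0 by construction, and 1333, 1183 and 810 lie in 3 wild-type lists.

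The long lists also dominated without both doubted E2 lists, holding 98.98% and 97.8% of the 16594 regions, while the clone 1 replicate 1 list then held 31.25% and the clone 3 replicate 1 list 12.3%. By combination, 2357 regions (89.96%) had a peak in those clone 1 and clone 2 replicate 2 lists and in no other D538G DMSO list. The exact 95% binomial interval was 88.75% to 91.09%, counting error only. The rule fixed this set, so the interval served only as a yardstick for the alternatives. Another 87 had peaks in both clone 1 replicates alone, 81 in both clone 1 replicates and clone 2 replicate 2, 42 in clone 1 replicate 1 and clone 2 replicate 2, and 23 in clone 1 replicate 2 and clone 3 replicate 1. A total of 2515 regions had a peak in 2 DMSO lists, 4 had one in 4 lists, the remainder in 3, and none in 5 or 6. Without the clone 1 replicate 2 DMSO list 159 regions met the rule, and without the clone 2 replicate 2 DMSO list 218.

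Clones 1 and 2 were thus represented almost equally and clone 3 hardly at all. A peak from at least 1 DMSO replicate of clone 1 lay in 2615 regions, of clone 2 in 2510 and of clone 3 in 51. Peaks came from 2 clones in 2510 regions, from all 3 clones in 23 and from clone 1 alone in 87. Repetition within a clone was rare: both DMSO replicates had a peak in 172 regions for clone 1, in 1 region for clone 2 and in none for clone 3. The shorter DMSO list of each clone set a ceiling, with a peak in 12.7%, 4.12% and 1.62% of all regions for clones 1, 2 and 3. Leaving out clone 3, E2 lists included, gave 8381 regions, leaving out clone 2 gave 391, and leaving out clone 1 gave 29.

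The pairs of lists behind these regions ran in opposite directions by treatment. In clone 1 replicate 2 the DMSO list had 50382 peaks and the E2 list 6543, and in clone 2 replicate 2 these were 54903 and 1979. In clone 3 replicate 2 the DMSO list had 1621 peaks and the E2 list 49223. Whether the treatments of any pair were exchanged in labelling cannot be told from peak lists. For the replicate 2 pairs of clones 1 and 2 an exchange would reverse what DMSO-only means, and every value here takes the labels as given. List length moved with membership, and its part in the result was not tested. With every list held to its 1000 strongest peaks 104 regions met the rule, and with 5000 there were 580. None of either set overlapped a DMSO-only region of the whole lists, and all 104 and all 580 had a D538G E2 peak once the whole lists were used. Little overlap was possible, since 3 and 19 DMSO-only regions lay in the strongest 10% of the long DMSO lists. Equal length therefore cannot decide what part list length played.

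The DMSO-only regions were mostly weak peaks as chosen with all E2 lists. Rank is given as the percentile of the peak's deposited signal value within its own list, where 100 is the strongest peak. In the clone 1 replicate 2 list the regions had a median percentile of 33.0 (quartiles 15.4 and 51.2, highest 92.6), and 3 of 2573 lay in the strongest 10% of the list. In the clone 2 replicate 2 list the median was 45.0 (quartiles 24.3 and 65.4, highest 95.1), with 19 of 2509 in the strongest 10%. The short lists gave medians of 21.97 for the 214 regions in clone 1 replicate 1 and 23.5 for the 51 in clone 3 replicate 1. Over all D538G DMSO peaks of these regions the median percentile was 37.1. It was 52.6 when the doubted E2 lists were left out of the rule, with 57.9 in clone 1 replicate 2 and 64.1 in clone 2 replicate 2. It was 61.45 in the whole lists when only peaks with a −log10 p of at least 20 counted in every list, a limit that itself removes weak peaks. The low ranks thus belong to the set chosen with all lists and all peaks.

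For comparison, the 23918 regions with a peak in at least 2 D538G DMSO lists and at least 1 D538G E2 list, called shared regions here, had median percentiles of 72.1 in clone 1 replicate 2 and 75.6 in clone 2 replicate 2. The 6148 of them with exactly 1 E2 list had 46.2 and 52.7. DMSO-only regions were also narrower, with a median width of 493 bp against 901 bp in shared regions (784 bp against 924 bp without the doubted E2 lists). In the clone 1 replicate 2 list the median deposited −log10 p was 30.5 for DMSO-only regions and 47.7 for all peaks, and in the clone 2 replicate 2 list 18.8 and 19.9. The long lists were unlike in this respect, the regions lying further below the list's typical peak in clone 1 than in clone 2.

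The share of each list that was DMSO-only fell from weak to strong peaks in clone 1, while in clone 2 it rose slightly over the weaker bins and was lower in the strongest. With each list cut into 4 rank bins of equal size, from weakest to strongest, and starting with clone 1 replicate 2, DMSO-only regions made up 8.97%, 7.22%, 4.59% and 0.693% of its regions. In the clone 2 replicate 2 list the bins held 5.65%, 5.88%, 6.75% and 2.38%. Without the doubted E2 lists the bins held 23.4%, 32.1%, 53.5% and 27.2% in clone 1 and 22.6%, 25.5%, 37.4% and 45.75% in clone 2, so neither list then had its smallest share among the strongest peaks. Ranks in the 2 lists hardly moved together: over the 2462 DMSO-only regions in both, Spearman's rho was 0.0845 and Pearson's r 0.0820, against 0.494 and 0.399 over 21114 shared regions. Over 16056 DMSO-only regions chosen without the doubted E2 lists rho was 0.320 (r 0.298). These correlations run across regions of the same pair of libraries, which are not replicates. How the range of ranks in each set affects their size was not tested.

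Regions in both long DMSO lists can be ordered by how many of the 6 D538G E2 lists held them. Of 23576 such regions 2462 had none, 5778 had 1, 8285 had 2, 2795 had 3, 1577 had 4, 1639 had 5 and 1040 had 6. The median percentile in the clone 1 replicate 2 list was 31.7 with no E2 list, 45.4 with 1, 69.4 with 2 and 97.6 with 6, so DMSO-only regions lay at the weak end of a graded series. The step from none to 1 E2 list rested on few libraries. Of the 6148 regions that missed the rule by exactly 1 E2 list, 5252 (85.4%) had that peak in the list labelled clone 3 replicate 2 E2, 753 in clone 2 replicate 1, 130 in clone 3 replicate 1, 12 in clone 1 replicate 1, 1 in clone 1 replicate 2 and none in clone 2 replicate 2.

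**Figure D2:**
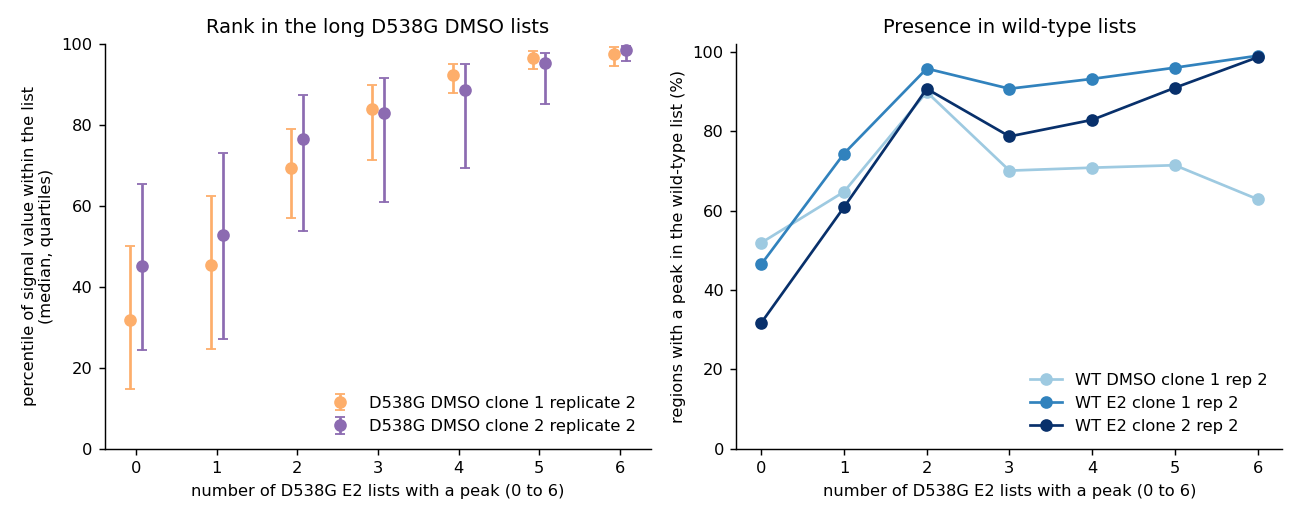
Regions with a peak in both long D538G DMSO lists, by the number of D538G E2 lists with a peak (horizontal axis, 0 to 6). Left, median and quartiles of the percentile of signal value within each DMSO list, which in clone 1 replicate 2 go from 31.7 at 0 to 97.6 at 6; right, the percentage of the same regions with a peak in each of the 3 long wild-type lists, lowest at 0 for all of them.

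Wild-type lists were not part of the rule, but their peaks entered the merging that set the regions' bounds: merged over the D538G lists alone, 2703 regions met the rule. At least 1 of the 8 wild-type lists had a peak in 1667 DMSO-only regions (63.6%; exact 95% binomial interval 61.75% to 65.47%, counting error only), and 953 (36.4%) had none. The same share was 91.0% in shared regions, 81.5% in those with exactly 1 E2 list, 61.8% in the 3101 regions with the reverse pattern (at least 2 D538G E2 lists, no DMSO list), 16.5% in the 31929 regions with exactly 1 D538G DMSO list and no E2 list, and 43.75% over all regions. The DMSO-only regions thus lay above the average of all regions and below those that D538G also held with E2. Median percentiles differed between the DMSO-only and shared sets as given above. Without the doubted E2 lists the share of DMSO-only regions with a wild-type peak was 87.0%.

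A few long wild-type lists carried this overlap. The wild-type DMSO list of clone 1 replicate 2 had a peak in 1333 DMSO-only regions (50.9%), the E2 list of clone 1 replicate 2 in 1183 (45.2%) and the E2 list of clone 2 replicate 2 in 810 (30.9%). The other lists held few of them: the E2 replicate 1 lists of clones 1 and 2 held 4 and 2, the DMSO list of clone 2 replicate 2 held 1, and the DMSO replicate 1 lists held none, with 51 and 45 peaks in those lists. Apart from 1 region, a single wild-type DMSO library spoke to this set. Without it the share with any wild-type peak was 47.3%, and without the clone 1 replicate 2 E2 list it was 58.3%.

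**Figure D3:**
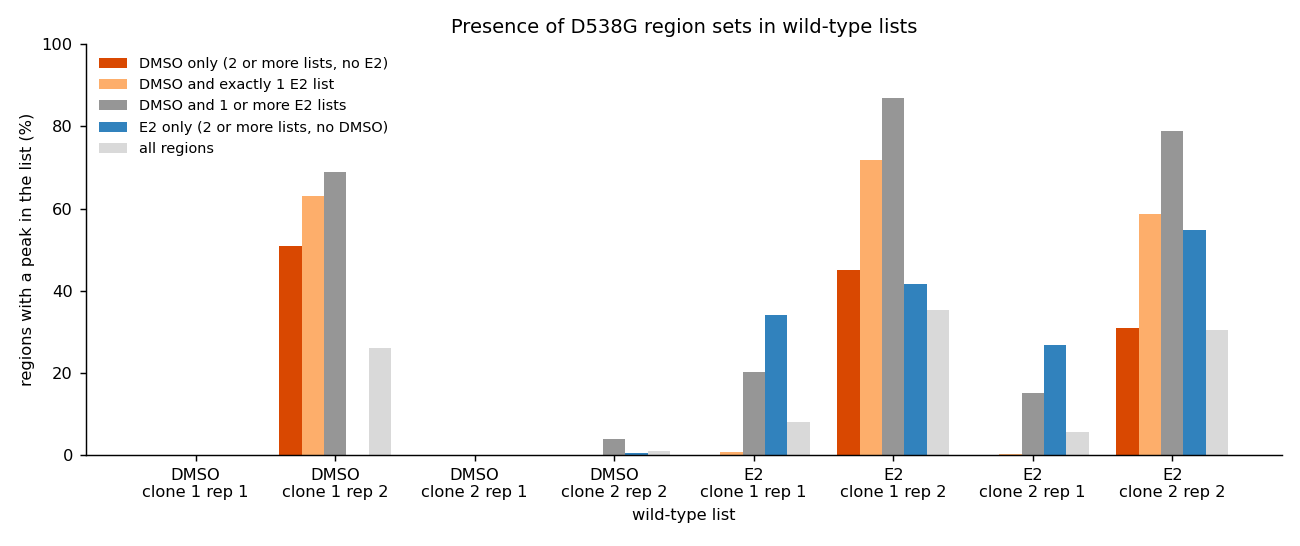
Bars give the percentage (vertical axis) of each D538G region set that has a peak in each of the 8 wild-type lists (horizontal axis). The DMSO-only regions reach 50.9% in the clone 1 replicate 2 DMSO list, 45.2% in its E2 list and 30.9% in the clone 2 replicate 2 E2 list, below the shared regions in each of these 3 lists.

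By treatment, 902 DMSO-only regions (34.4%) had wild-type peaks under both DMSO and E2, 431 (16.45%) under DMSO alone and 334 (12.75%) under E2 alone. The most frequent combination, in 597 regions, was all 3 long lists. The 431 regions came from the clone 1 replicate 2 DMSO list alone, 280 lay in that list and its E2 counterpart, 154 in both long E2 lists, 146 in the clone 1 replicate 2 E2 list and 32 in the clone 2 replicate 2 E2 list.

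The E2 effect in wild type was the contrast of the design that the rule had not used. Each of 29229 regions with a peak in at least 2 wild-type lists was tested for unequal numbers of E2 and DMSO lists (two-sided Fisher's exact test, p-values adjusted by Benjamini-Hochberg over all of them). Over all regions tested, 9.34% (2731) had an unadjusted p under 0.05, every one with more E2 lists, and 0 passed after adjustment (smallest adjusted p 0.306). Of the 1058 DMSO-only regions that could be tested, 0 passed unadjusted, with a smallest Fisher's exact p of 0.143, and the other 1562 had too few wild-type peaks. With 4 lists against 4, only peaks in all lists of a treatment and none of the other give the smallest possible exact p, 0.0286. Since the wild-type DMSO list that held these regions was a single library, more DMSO than E2 lists could not pass this test. Toward E2 a pass needed all 4 E2 lists, and the E2 replicate 1 lists held only 4 and 2 DMSO-only regions. The 0 therefore does not show whether these regions gain peaks with E2. The same test in D538G used the selecting contrast and is background: 0.0200% of 44916 regions (9) passed unadjusted, no DMSO-only region did (smallest exact p 0.0606), and 0 passed after adjustment.

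Within 1 wild-type pair, DMSO-only regions chosen with all E2 lists lay more often on the DMSO side than regions at large. Chosen without the doubted E2 lists, they lay there less often, 7.40% against 12.5% of all regions. In wild-type clone 1 replicate 2, where the DMSO list had 29118 peaks and the E2 list 35344, 1635 DMSO-only regions had a peak in either list. Of these, 452 (27.65%; exact 95% binomial interval 25.49% to 29.88%, counting error only) had it under DMSO and not E2, 302 (18.5%) under E2 and not DMSO, and 881 (53.9%) in both. Over all 37755 regions in either list, 12.4% were in the DMSO list only, 35.3% in the E2 list only and 52.2% in both. The share in the DMSO list only was 3.22% of 21441 shared regions and 10.4% of 4926 regions with exactly 1 D538G E2 list, and it was higher, 43.7% of 5104, in regions with exactly 1 D538G DMSO list and no E2 list. DMSO-only regions thus lay between these sets. There is 1 library per treatment here, so these are descriptions of 2 libraries with no test of treatment. In wild-type clone 2 replicate 2, where the DMSO list had 1080 peaks, the counts were 1 region under DMSO and 810 under E2.

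**Figure D4:**
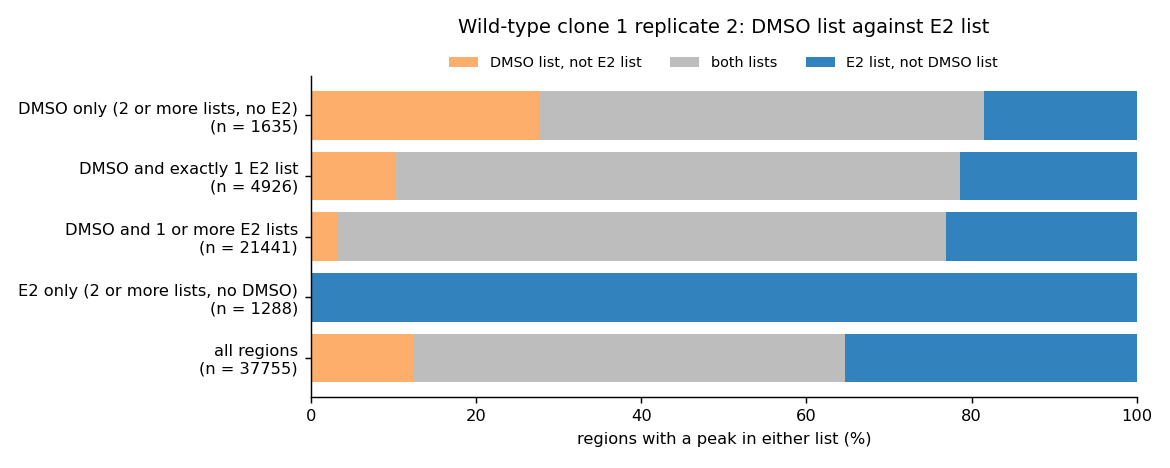
Stacked bars split the regions with a peak in either list of wild-type clone 1 replicate 2 (number in brackets) into DMSO list only, both, and E2 list only (horizontal axis, percent), for each D538G region set. The DMSO-only D538G regions are at 27.65%, 53.9% and 18.5%, and all regions at 12.4%, 52.2% and 35.3%.

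The comparison was repeated within the 4 rank bins of the D538G clone 1 replicate 2 DMSO list. From the weakest to the strongest bin, the share seen in the wild-type DMSO list and not its E2 list was 34.7%, 27.6%, 21.6% and 14.3% for DMSO-only regions, against 10.98%, 6.56%, 3.06% and 0.941% for shared regions. The strongest bin rested on 56 DMSO-only regions. The share seen in the E2 list only was 31.5%, 16.3%, 7.21% and 17.9% against 53.1%, 30.1%, 14.1% and 21.3%. DMSO-only regions were on the DMSO side more often than shared regions in each bin. The size of this share varied with the D538G E2 lists used to choose the regions and with the peaks counted. It was 22.02% without the list labelled clone 2 replicate 1 E2, 15.3% without that labelled clone 3 replicate 2 E2 and 7.40% without both. The last was below the 12.5% of all regions in that setting. Without both, the shares by bin were 20.7%, 11.3%, 4.67% and 1.30% against 0.855%, 2.11%, 1.74% and 0.874% in shared regions, so DMSO-only regions were above shared ones in each bin there too. With all lists it was 15.5% when only peaks with a −log10 p of at least 20 counted and 56.45% with the 5000 strongest peaks of each list.

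The wild-type DMSO list behind this was by far the longest of its group. Of its regions 93.1% were also in the D538G clone 1 replicate 2 DMSO list, as were 96.85% to 97.6% of those of the other 3 wild-type DMSO lists. DMSO-only regions made up 5.46% of its regions, close to 5.37% and 5.17% in the long D538G DMSO lists, and 3.58% and 2.85% in the long wild-type E2 lists. Their median percentile in it was 46.4, with 76 in its strongest 10% and a highest percentile of 99.5, whereas in both long E2 lists it was 33.1. Without the doubted D538G E2 lists these medians were 62.3, 56.0 and 54.96. Ranks of DMSO-only regions in D538G clone 1 replicate 2 had a rho of 0.338 (r 0.340) with those in the wild-type DMSO list over 1332 regions, 0.245 (r 0.253) with the clone 1 E2 list over 1182 and 0.289 (r 0.295) with the clone 2 E2 list over 810. Ranks in D538G clone 2 replicate 2 had rho of 0.0353, 0.0720 and 0.132 with the same lists, with r of 0.0324, 0.0727 and 0.119. The correlations were higher for the D538G clone 1 library than for clone 2 with each of the 3 wild-type lists. Without the doubted E2 lists rho was 0.468, 0.495 and 0.470 for clone 1 (r 0.456, 0.474 and 0.455) and 0.155, 0.216 and 0.223 for clone 2 (r 0.137, 0.198 and 0.203). They are descriptions across regions, with no test.

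Summits, the points of highest signal, gave a finer view of whether peaks in a region coincided. Between the long D538G DMSO lists the summits of DMSO-only regions lay a median of 88 bp apart, with 33.6% within 50 bp, and those of shared regions 81 bp apart. Between D538G clone 1 replicate 2 and the wild-type clone 1 replicate 2 DMSO list the median was 45 bp (54.0% within 50 bp), and to its E2 list 46 bp. Shared regions, which are wider, had 50 bp and 41 bp. Without the doubted E2 lists the 3 medians were 115 bp, 53 bp and 51 bp for DMSO-only regions and 36 bp, 42 bp and 31 bp for shared ones.

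Most DMSO-only regions lay near a region with a D538G E2 peak, as far as the doubted E2 lists are counted. The median distance to the nearest region with a D538G E2 peak was 2621 bp, and 952 regions (36.3%) lay within 1 kb, 1855 (70.8%) within 10 kb and 95.15% within 100 kb. Without the doubted lists the median was 31750 bp and 27.6% lay within 10 kb, against 6216 bp and 58.8% for shared regions. Shared regions had a median of 3250 bp to the nearest other such region, and the reverse set 11208 bp to the nearest other one. Regions with exactly 1 D538G DMSO list and no E2 list, at 3024 bp, were close to the DMSO-only set. When a region also had to lie more than 1 kb from any D538G E2 peak, 1708 remained by count. Among themselves, DMSO-only regions lay a median of 98182 bp apart, with 401 (15.3%) within 10 kb of another. The far larger set without the doubted lists had a median spacing of 15239 bp.

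They were spread over all chromosomes considered, with a tilt to a few. Chromosome 1 held 282 (10.8% of DMSO-only regions, 8.74% of all regions), chromosome 19 held 241 (9.20% against 6.79%) and chromosome 11 held 217 (8.28% against 5.87%). Chromosome 4 held 2.21% against 3.76% and chromosome 13 held 0.916% against 1.87%. Chromosome X held 44 regions, 1.68% of the DMSO-only set, 0.556% of shared and 1.12% of all regions. The reverse set of E2-only regions was distributed otherwise, with 0.581% on chromosome 19, 0.677% on chromosome 22 and 9.26% on chromosome 4, where DMSO-only regions had 9.20%, 4.24% and 2.21%. Without the doubted E2 lists the DMSO-only and shared shares were 9.15% and 8.65% on chromosome 1, 7.955% and 4.97% on chromosome 19, 6.35% and 5.65% on chromosome 11, and 0.663% and 0.678% on chromosome X. The excess over shared regions on chromosome X was thus seen only with those lists, and those on chromosomes 1, 11 and 19 in both. No test was made of these shares.

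**Figure D5:**
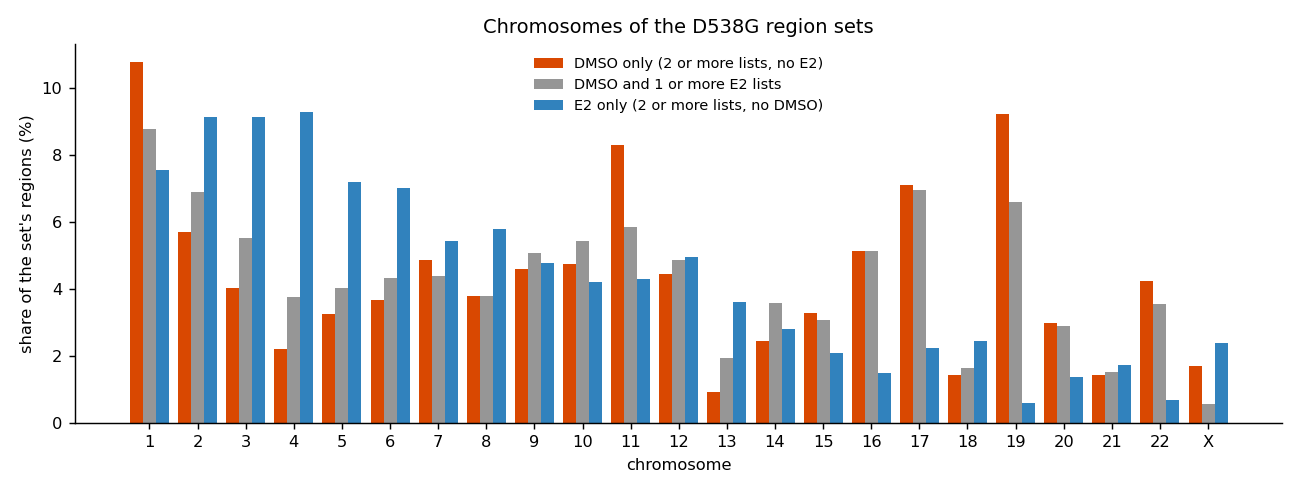
Bars give the share (vertical axis, percent of the set's regions) on each chromosome (horizontal axis, 1 to 22 and X) of DMSO-only, shared and E2-only D538G regions. DMSO-only regions have 10.8% on chromosome 1 and 9.20% on chromosome 19, where E2-only regions have 7.55% and 0.581%.

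In windows of 1 Mb, 1075 of 2718 windows with any region held a DMSO-only region. The fullest windows were near chromosome ends. On hg19, chromosome 11 from 2000001 to 3000000 held 32 among 334 regions, chromosome 1 from 1000001 to 2000000 held 26 among 322, and chromosome 11 from 1 to 1000000 held 23 among 348. These windows hold many regions of every kind. DMSO-only regions were 9.58%, 8.07% and 6.61% of them, above the 2.80% over all regions. The windows were picked for holding the most DMSO-only regions, which favours high shares. Another full window, chromosome 9 from 139000001 to 140000000, held 17 among 493 regions (3.45%). Of the 16594 regions chosen without the doubted E2 lists, the same windows held 67, 56 and 98. Shares of the windows were not computed for that larger set, so these counts do not show whether the excess remained.

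Single regions, all given on hg19, show what the counts stand for. The 4 regions with a peak in 4 D538G DMSO lists are those that rest least on the long pair. At chr1:229566530-229566873 the percentile was 55.4 in clone 1 replicate 1, 80.7 in clone 1 replicate 2, 53.9 in clone 2 replicate 2 and 51.05 in clone 3 replicate 1. All 3 clones therefore held it at or above the middle of the list. In wild type it was at 89.9 in the clone 1 replicate 2 DMSO list and 55.3 in the E2 list of the same replicate, and the nearest D538G E2 region was 1705 bp away. At chr19:8841869-8842213 the percentiles in the same D538G lists were 25.6, 59.9, 57.3 and 48.0, no wild-type list had a peak, and the nearest D538G E2 region was 32873 bp away. It was the only one of the 4 without a wild-type peak.

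The remaining regions of that kind were weaker in some lists. At chr6:133135040-133136046 the D538G percentiles were 3.8, 69.4, 74.6 and 26.8 in the order above, with 88.2 in the wild-type clone 1 replicate 2 DMSO list and 27.6 in its E2 list. At chr19:48707032-48707576 they were 11.2, 52.6, 53.6 and 16.01, with 68.1 and 17.95 in that wild-type pair. Each of the 3 regions of this kind with wild-type peaks ranked higher in that DMSO list than in its E2 list. The strongest region with 3 DMSO lists, chr12:33591807-33592954, was at 87.3, 76.7 and 49.6 in clone 1 replicates 1 and 2 and clone 2 replicate 2. It lay at 35.0 in the wild-type clone 1 replicate 2 DMSO list, 64.6 in its E2 list and 48.5 in the clone 2 replicate 2 E2 list, the other order of treatments.

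Regions with no wild-type peak included chr2:238483612-238484983, with percentiles of 13.3, 84.5 and 70.2 in clone 1 replicates 1 and 2 and clone 2 replicate 2. In the same lists chr10:105506482-105507436 was at 43.2, 82.5 and 36.8, chr17:38225594-38226960 at 21.3, 38.3 and 89.2, and chr19:23257646-23258632 at 41.7, 79.2 and 24.3. These had strong peaks in 1 long list and weaker ones in the other. The first 3 had a D538G E2 region 1033, 657 and 676 bp away, and the last 174053 bp.

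At the other end, chr1:41733645-41734191 had peaks in 5 wild-type lists. It was at 78.8 in the clone 1 replicate 2 DMSO list and at 59.3, 81.6, 14.3 and 59.9 in the 4 E2 lists (clone 1 replicates 1 and 2, clone 2 replicates 1 and 2), while D538G had it at 70.8 in clone 1 replicate 2 and 45.1 in clone 2 replicate 1. All wild-type E2 lists held this site, and no D538G E2 list did. Regions chr1:972197-974118, chr14:23775731-23776489 and chr19:1307395-1308292 had 4 wild-type lists each, with D538G percentiles of 19.1 and 62.7, 43.5 and 7.23, and 4.12 and 32.1 in clone 1 and clone 2 replicate 2. The first and last had 3 E2 lists and 1 DMSO list, the middle one 2 of each. Among regions with 3 wild-type lists, chr1:41267806-41268523 ranked highest in D538G, at 81.45 in clone 1 and 95.1 in clone 2 replicate 2, with 75.8 in the wild-type clone 1 replicate 2 DMSO list and 72.7 and 77.9 in the long E2 lists. A D538G E2 region lay 1003 bp from it.

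Just outside the rule, the region in most D538G DMSO lists was chr5:110427725-110428351, with 5 lists, at 64.6, 45.4, 5.11, 84.9 and 2.33 in clone 1 replicates 1 and 2, clone 2 replicates 1 and 2 and clone 3 replicate 1. Its single E2 peak, at 71.0, was in the list labelled clone 2 replicate 1 E2. The same list held the only E2 peak, at 78.6, of chr19:2739828-2740454, which was at 30.6, 90.1, 94.9 and 56.8 in 4 D538G DMSO lists and at 99.6 in the wild-type clone 1 replicate 2 DMSO list. The E2 peak of chr1:11610685-11611053, at 28.8, was in the clone 3 replicate 1 list, and its 4 D538G DMSO percentiles were 42.55, 87.8, 91.4 and 60.4. These regions outranked most DMSO-only regions in the long DMSO lists and were kept out by 1 E2 list each. Regions kept out by having only 1 DMSO list reached 93.75 (chr7:155752564-155753063), 93.5 (chr6:166863369-166864037, clone 2) and 93.45 (chr1:230887879-230888788), the first and last in clone 1 replicate 2, with no wild-type peak in any of the 3. The sequences of the regions and the genes near them were not analysed here.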

How the data were processed

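Peak lists of 20 precipitated libraries were used, 1 list per library. The 2 input libraries were not used here. The submitters' processing notes name Bowtie, MACS2, DESeq2 and hg19, with no role or version. The deposited lists give for each peak the authors' signal value, −log10 p, −log10 q and a score. Every deposited −log10 p lay above 10, per the lowest value of each list, and signal served to order the peaks of each list. Read depth is unknown, so intervals cover counting of regions only. They treat regions as independent, although regions are not replicates, and served only to label the alternatives as unchanged or moved. Columns of other series numbered 0.

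Peaks were merged with pandas 2.3.3 and numpy 2.4.6 (Python 3.11.15), and merging was checked against bedtools 2.31.1. Of 356472 peaks, 35 on chromosome Y or the mitochondrial sequence were left out, and neither of the 2 regions there met the rule. Fisher's exact test (scipy 1.17.1, Benjamini-Hochberg adjustment) was run on simulated presence, with lists drawn independently apart from planted changes. The real lists overlap heavily, so that run does not show how the test performs on them. Figures were drawn with matplotlib 3.10.9. Percentiles rank each region by its highest signal value in a list. Coordinates are 1-based on hg19.

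Groups, clones and replicate numbers came from the labels, which pair an E2 with a DMSO list of the same clone and number; within these pairs log10 peak numbers correlated at 0.914 over 4 wild-type pairs and −0.929 over 6 D538G pairs. Named regions were, outside chromosome 8, the 5 in most D538G DMSO lists, the 5 such with no wild-type peak, the 5 in most wild-type lists, and the 3 that just missed the rule in each of 2 ways, with ties broken by mean percentile. The regions, sets and comparisons were chosen with earlier results of these data known. Motif and gene analyses, which need a genome or annotation of the same build, were not run. Alternatives were stricter peak thresholds, list length, summits in place of peaks, distance, number of lists, and each library or clone left out.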

Additional observations from a re-analysis of the deposited data

Results flagged for a closer look

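The wild-type clone 1 replicate 2 DMSO list stood far from the other 3 lists of its group in the number of DMSO-only D538G regions with a peak, 1333 against 0, 0 and 1. It also stood apart in the share of its own regions that were DMSO-only, 5.46% against 0% to 0.102%. In a search of 8 combinations of group and measure for a library far from the rest, these 2 were found. Both come from the same library and the same peaks. The other lists of the group had 42, 39 and 983 regions against 24414 in this list, and the part of list length was not tested. Chance nominally flags about 1 in 20 groups, a rate that does not hold for the D538G lists, whose values the rule used.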

How the results depend on the processing

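Of 218 alternative values, 138 counted as unchanged and 80 moved. Unchanged meant within 1.5 times for counts, within the exact 95% interval for shares and within 1 SD of the list medians (9.42) for the percentile. Of the 138, 27 were adjusted counts of 0. Leaving out single D538G lists gave 159 to 7909 regions, 85.19% to 97.88% in the long pair alone, median percentiles of 29.3 to 41.5, wild-type shares of 58.5% to 75.2% (47.3% to 63.6% when single wild-type lists were left out), and 15.3% to 28.8% on the DMSO side of the wild-type pair. At least 3 DMSO lists gave 105 regions, with 85.7% and 18.6% for the last 2. A −log10 p of 20 in every list gave a median percentile of 61.45, shares of 80.2% and 15.5%, and 2 DMSO-only regions under an unadjusted Fisher's exact p of 0.05 in wild type. The same limit in D538G DMSO lists alone gave 858 regions, 92.8% in the long pair, a percentile of 57.3 and a wild-type share of 78.0%. The 1000 strongest peaks gave 104 regions, 12.5%, 94.7, 45.19% and 45.16% in that order, and 30 regions of the whole table unadjusted. The 5000 strongest gave 580, 4.48%, 77.8, 48.3% and 56.45%, and 702. Summits gave 79.1% in the long pair, 31.7% on the DMSO side and 1 region unadjusted. A distance of 1 kb gave 1708 regions, 88.35% and a wild-type share of 66.6%.

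Without clone 1 there were 29 regions (wild-type share 72.4%, DMSO side 33.3%), without clone 2 391 (81.3%, 20.2%) and without clone 3 8381 (75.4%, 14.6%, long pair 86.1%). Without both lists of D538G clone 2 replicate 1 the shares were 87.05%, 70.1% and 22.03%. Without the E2 lists labelled clone 2 replicate 1 and clone 3 replicate 2 there were 16594 regions, 65.6% in the long pair, a percentile of 52.6, a wild-type share of 87.0% and 7.40% on the DMSO side. These settings without list pairs, and the DMSO-side share itself, were added after seeing the data.

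With the replicate block, a sign test within clone and replicate pairs, 0 regions passed an unadjusted p of 0.05 in wild type and 0 in D538G, since so few pairs cannot reach it in wild type. Leaving out single lists gave 2732 to 3810 regions unadjusted in wild type (DMSO-only 0 to 1) and 9 to 481 in D538G (DMSO-only 0 to 4), and 0 adjusted. The D538G counts use the contrast that chose the DMSO-only regions, so they are background and nothing is read from them. The long-pair share has no value where a list of that pair is left out or 3 lists are needed. The motif and gene analyses and their alternatives were not run. Beyond the fewer libraries or peaks each setting leaves, the cause of these shifts was not tested.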
